A study of Rattus norvegicus with 14 samples.

Results

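The genes described here make and remove hydrogen sulfide. They were Cbs, Cth and Mpst, whose enzymes can release sulfide from cysteine, and Sqrdl, Ethe1, Tst and Suox, whose enzymes oxidise it to sulfate. Members were the non-control probes whose gene name in the array design was one of these 7 symbols, and all 7 genes were found, with 8 probes, among 26276 gene names and 30367 probes. Colonocytes, the epithelial cells of the colon, came from male Wistar rats that were 5 to 6 weeks old at purchase and took a standard diet before the trial. For 15 days they then ate freely either a normal-protein diet (NPD), in which protein gave 14% of the energy, or a high-protein diet (HPD) of equal energy, in which it gave 55%. The cells were loosened with EDTA from the colon without its last segment, which went to other assays, and the sources name no sorting step. Each of the 14 arrays analysed carried the RNA of 1 rat, 7 per diet, and the comparison asked whether colonocytes of HPD rats held other amounts of these mRNAs than those of NPD rats.

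Hydrogen sulfide reaches the colonic epithelium from bacteria that break down sulfur amino acids and reduce sulfate, and the cells also make some themselves. At low concentrations it can feed electrons into the mitochondrial respiratory chain, and in excess it inhibits cytochrome c oxidase. Colonocytes are known for a high capacity to oxidise it. In mitochondria, sulfide:quinone oxidoreductase (gene Sqrdl, now named Sqor) passes the electrons of sulfide to ubiquinone and forms a persulfide. The persulfide dioxygenase ETHE1 oxidises the persulfide to sulfite, thiosulfate sulfurtransferase or rhodanese (Tst) moves sulfane sulfur between sulfite, thiosulfate and glutathione, and the molybdenum enzyme sulfite oxidase (Suox) completes the route to sulfate.

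The probes show which stretch of each mRNA was read. Each was 60 bases long, and the positions and sequences are those of the deposited scanner files in build rn4. The probes of 5 genes are printed 5′ to 3′, in lower case throughout because the whole probe was the measured stretch. Those of Suox and Cbs are given by position only.
Sqrdl: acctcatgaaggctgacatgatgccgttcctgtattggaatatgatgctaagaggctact
Ethe1: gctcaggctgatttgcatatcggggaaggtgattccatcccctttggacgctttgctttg
Tst: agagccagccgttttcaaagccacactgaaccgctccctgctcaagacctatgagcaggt
Mpst: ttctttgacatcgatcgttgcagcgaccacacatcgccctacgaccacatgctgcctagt
Cth: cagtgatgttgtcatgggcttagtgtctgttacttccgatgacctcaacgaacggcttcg
The Sqrdl probe lay on the plus strand at chr3:109750855-109752060 and the Ethe1 probe on the plus strand at chr1:79876758-79887826. Both spans, of 1206 and 11069 bases, are longer than the probe, so each of these probes joins sequence from either side of an intron and matches spliced RNA. The Tst probe was at chr7:116355388-116355447 on the minus strand and the Mpst probe at chr7:116359667-116359726 on the plus strand. These neighbouring genes encode related sulfurtransferases, and 4219 bases lay between their probes. The longest run of bases that the pair of probes shared on either strand was 6, and no member probe shared more than 15 bases in a row with a probe of another gene name. The Cth probe was at chr2:256069319-256069378 on the minus strand. Suox was read by a probe at chr7:1973741-1973800, and Cbs by probes at chr20:10047648-10047707 and chr20:10051534-10051593, all on the minus strand.

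Values below are log2 of the background-subtracted brightness of a probe, with the median of each array set to 0, so they give no order of abundance between genes. The limma fit compared the diets over all 30367 probes, and a probe was called at a Benjamini-Hochberg adjusted p under 0.1. Between 18926 and 21042 probes per array were well above background. Before centring, the median signal of the arrays was 113.5 to 179.3 in NPD and 89.7 to 129.5 in HPD. HPD replicate 7 was lowest in both respects, and the part of array brightness in the differences below was not tested. Of the 8 member probes, 7 were well above background on all 14 arrays and none was saturated. The exception was the Cbs probe at chr20:10051534-10051593, which was not well above background on any array and is given no fold. The arrays lay on 2 slides, with 4 NPD and 3 HPD arrays on slide 1 and 3 NPD and 4 HPD arrays on slide 2. Slide was called for 40.1% of all probes in a fit of diet and slide, and for 4 of the 7 genes, so each member is also given within slides and with slide as a block. P-values set a difference against the spread between these 14 rats. In the fit of diet alone that spread includes the difference between the slides.

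None of the 7 genes was called between the diets, against 0.0560% of all probes. This fit called 17 probes, 0 of them lower in HPD. At the same threshold the study reports far more genes, most of them lower in HPD, so its list was not reproduced here. With slide as a block the share of probes called was 0.0889%, and again no member was among them. At an unadjusted limma p under 0.05, 0 members lay higher in the HPD group, against 5.86% of all probes, and 0 lower, against 5.55%. By sign of the difference 2 of the 7 were higher in HPD and 5 lower, with a median log2 difference of -0.09 against 0.11 over all probes. The values of the diets overlapped for all 7 genes, which is a description only, as the share over all probes is not given. In RNA from a whole cell preparation, fewer cells of a type and less RNA per cell cannot be told apart.

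**Figure D1:**
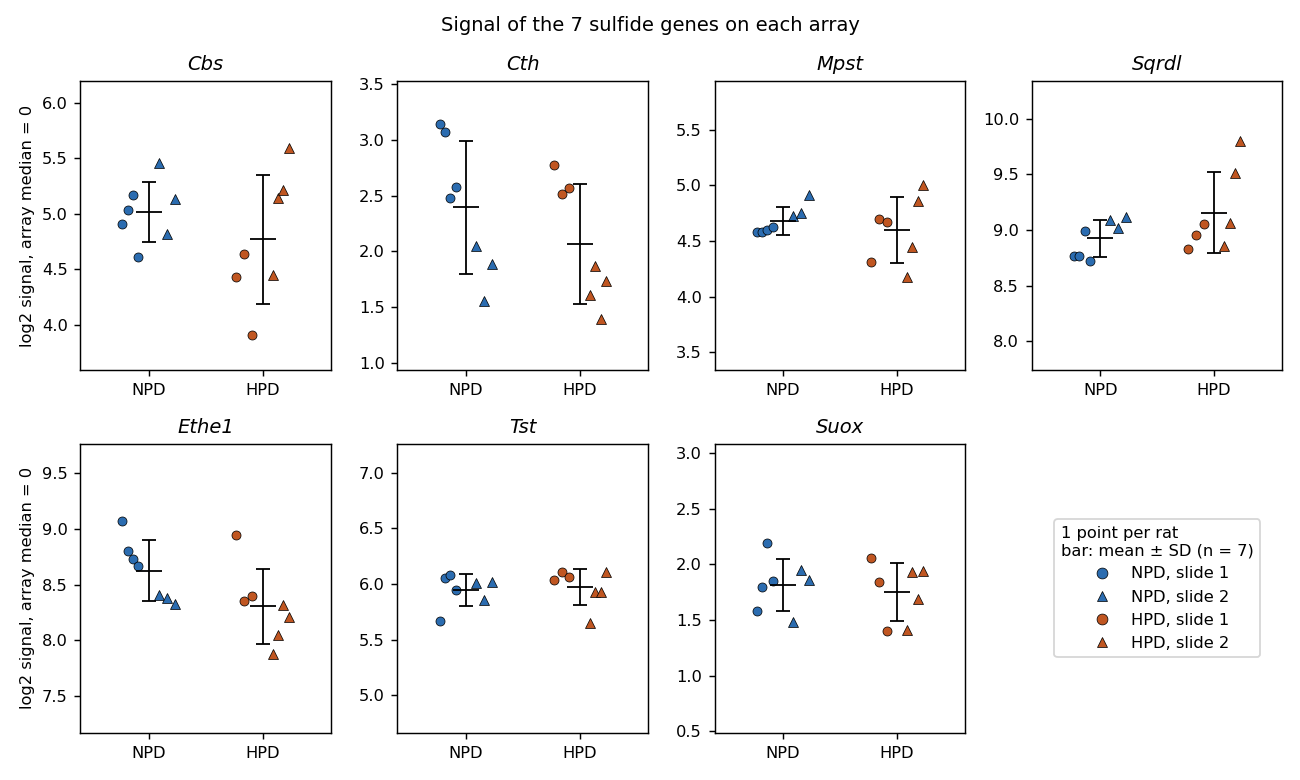
Log2 signal of the 7 sulfide genes on each array, with the array median at 0. Each point is 1 rat (blue NPD, orange HPD, circles slide 1, triangles slide 2), bars give the mean ± SD of 7 rats, and every panel spans the same log2 range around its own mean. The diets overlap in every panel, Cth separates by slide (2.48 to 3.15 on slide 1, 1.39 to 2.05 on slide 2), and on slide 2 the 4 HPD rats lie below the 3 NPD rats for Ethe1.

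Among the genes of sulfide synthesis, Cbs encodes cystathionine β-synthase, which joins homocysteine to serine and can also release sulfide from cysteine. Its measurable probe ranged from 4.61 to 5.45 in the NPD rats (median 5.03) and from 3.91 to 5.59 in the HPD rats (median 4.64), so the HPD values ran past the NPD values at both ends. The log2 difference was -0.25 (SE 0.23, 95% confidence interval -0.74 to 0.24, limma adjusted p = 0.596). It was -0.61 within slide 1 and -0.03 within slide 2, and whether these differ was not tested. With slide as a block it was -0.32 (95% interval -0.74 to 0.10, adjusted p = 0.469). On slide 1 the 3 HPD rats lay between 3.91 and 4.64 and the 4 NPD rats between 4.61 and 5.17. Signal was higher on slide 2 than on slide 1 by 0.49 (adjusted p = 0.0725). The spread of Cbs between rats of a diet exceeded that of 83.6% of the probes well above background on all arrays. It was 20.0 times the error expected from the replicate spots of the probe.

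Cth encodes cystathionine γ-lyase, which cleaves cystathionine to cysteine and can release sulfide from cysteine. Its values were 1.56 to 3.15 in NPD (median 2.48) and 1.39 to 2.77 in HPD (median 1.87). All 7 arrays of slide 1 lay above all 7 of slide 2, and the slide difference was -0.98 (adjusted p = 0.000397). The diet difference was -0.33 (SE 0.28, 95% interval -0.94 to 0.28, adjusted p = 0.575) in the fit of diet alone. With slide as a block it was -0.19 (SE 0.13, 95% interval -0.47 to 0.09, adjusted p = 0.523), with -0.20 within slide 1 and -0.18 within slide 2. Of the 7 HPD rats 6 lay below the NPD mean of their own slide.

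Mpst encodes 3-mercaptopyruvate sulfurtransferase, which takes sulfur from a keto acid made from cysteine and yields sulfide when thioredoxin reduces its persulfide. NPD values were close together, from 4.58 to 4.92 (median 4.63), and HPD values reached from 4.18 to 5.00 (median 4.67). The SD was 0.12 in NPD and 0.30 in HPD (n = 7 each). The difference between the means was -0.09 (SE 0.13, 95% interval -0.37 to 0.20, adjusted p = 0.754), so HPD to NPD ratios from 0.773 to 1.15 lay inside the interval. It was -0.03 within slide 1, -0.17 within slide 2 and -0.10 with slide as a block (adjusted p = 0.70). HPD replicates 7 and 6 held 2 of the 3 highest of all 14 values and HPD replicate 4 the lowest.

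Sqrdl encodes the enzyme that starts mitochondrial sulfide oxidation. Its signal ranged from 8.72 to 9.12 in the NPD rats (median 8.99) and from 8.83 to 9.80 in the HPD rats (median 9.06). HPD replicates 7 and 6, at 9.80 and 9.51, stood above all NPD values, while the other 5 HPD values lay within the NPD range. The difference was 0.23 (SE 0.16, 95% interval -0.10 to 0.56, limma adjusted p = 0.515), a ratio of 1.17 with an interval from 0.930 to 1.48. The exact two-sided permutation test gave p = 0.169 over all splits of the arrays and p = 0.188 over regroupings within slides. The difference was 0.14 within slide 1 and 0.23 within slide 2, and slide 2 lay above slide 1 by 0.31 (adjusted p = 0.0866). With slide as a block the diet difference was 0.18 (95% interval -0.10 to 0.47, adjusted p = 0.534). Without HPD replicate 7 the diet difference was 0.12, and with all arrays it was 0.09 after quantile normalization.

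Ethe1 encodes the persulfide dioxygenase that acts after Sqrdl. Its values were 8.33 to 9.07 in NPD (median 8.66) and 7.88 to 8.95 in HPD (median 8.31), and 6 of the 7 HPD rats lay below the NPD mean. The log2 difference was -0.32 (SE 0.17, 95% interval -0.67 to 0.03, limma adjusted p = 0.453), a ratio of 0.801 with an interval from 0.627 to 1.02. The exact two-sided permutation p was 0.0775 over all splits and 0.0408 within slides. Both are unadjusted and were the lowest of the 8 member probes, and the share over all probes is not given. The next lowest within slides was 0.154, for the measurable Cbs probe.

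The slides differed for Ethe1 by -0.45 (adjusted p = 0.00974), and the diet difference was close on each: -0.25 within slide 1 and -0.26 within slide 2. On slide 2 all 4 HPD rats (7.88 to 8.31) lay below all 3 NPD rats (8.33 to 8.40), as did 3.75% of all probes and no other member. On slide 1, HPD replicates 2 and 3 (8.35 and 8.40) lay below the 4 NPD rats, and HPD replicate 1 (8.95) was among them. With slide as a block the difference was -0.26 (SE 0.11, 95% interval -0.50 to -0.01) with an unadjusted limma p of 0.0431 and an adjusted p of 0.324. At that unadjusted threshold Ethe1 was the only member lower in HPD, where 7.32% of all probes were. Leaving out HPD replicate 1 gave -0.43, the largest size over the fits without 1 array, and an adjusted p of 0.152.

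Tst encodes rhodanese, and its signal varied little. Its spread between rats of a diet exceeded that of only 6.64% of the probes well above background on all arrays. NPD values were 5.66 to 6.08 (median 6.01) and HPD values 5.65 to 6.11 (median 6.04). The difference was 0.03 (SE 0.11, 95% interval -0.20 to 0.26, adjusted p = 0.893). Ratios from 0.872 to 1.20 lay inside that interval. The difference was 0.14 within slide 1 and -0.05 within slide 2, and 0.04 with slide as a block (adjusted p = 0.863). Without NPD replicate 1, the lowest NPD value, the difference was -0.02, and its sign also turned under other scalings listed in the closing section.

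Suox encodes sulfite oxidase, which makes sulfate, the end product of the route. Its signal ranged from 1.48 to 2.19 in NPD (median 1.85) and from 1.40 to 2.06 in HPD (median 1.84), so the medians were nearly equal. The difference of the means was -0.06 (SE 0.14, 95% interval -0.37 to 0.24, adjusted p = 0.828). It was -0.09 within slide 1, -0.02 within slide 2 and -0.06 with slide as a block (adjusted p = 0.868).

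**Figure D2:**
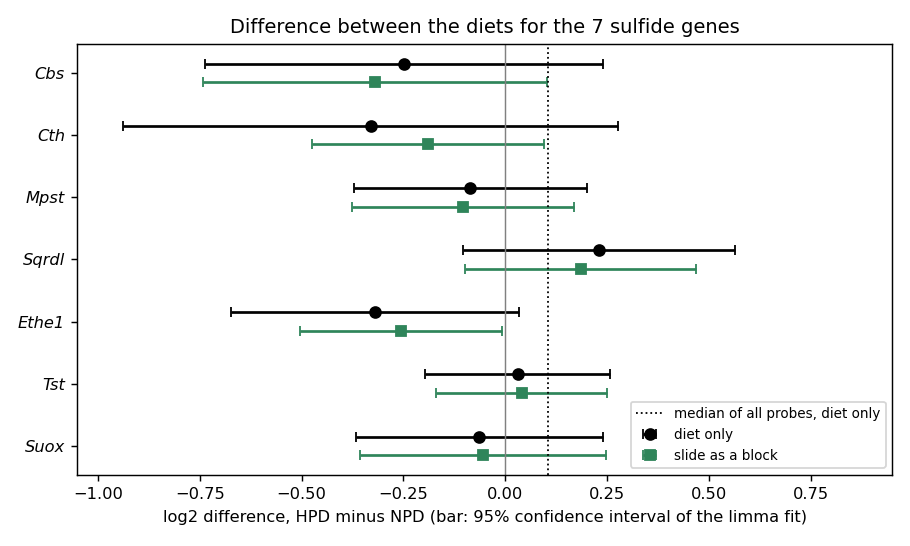
Log2 difference between the HPD and the NPD mean for each gene, with the 95% confidence interval of the limma fit of diet alone (black circles) and with slide as a block (green squares), beside the median difference of all probes in the fit of diet alone (dotted line, 0.11). All 7 black intervals hold 0, and of the green ones that of Ethe1, from -0.50 to -0.01, does not.

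Sqrdl and Ethe1 act one after the other, and their differences had opposite signs, so they were also set against each other on the same array. This contrast was chosen after the values were seen and is given as a description. Ethe1 minus Sqrdl, in log2 units, was -0.79 to 0.31 in NPD (median -0.26) and -1.59 to 0.12 in HPD (median -0.98). The HPD mean minus the NPD mean was -0.55, with SDs of 0.42 in NPD and 0.54 in HPD (n = 7 each), and 4 of the 7 HPD rats lay below the lowest NPD rat. The difference between the diets was -0.39 on slide 1 and -0.49 on slide 2. Both are smaller in size than the -0.55 over all arrays, where the diets are spread unevenly over the slides. It was between -0.71 and -0.43 over 25 settings, most of them fits without 1 array. Re-centring the arrays or filtering dim probes cannot change a difference between Ethe1 and Sqrdl on the same array, so those settings test nothing. HPD replicate 1, at 0.12, was the only HPD rat above the NPD mean of -0.30.

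**Figure D3:**
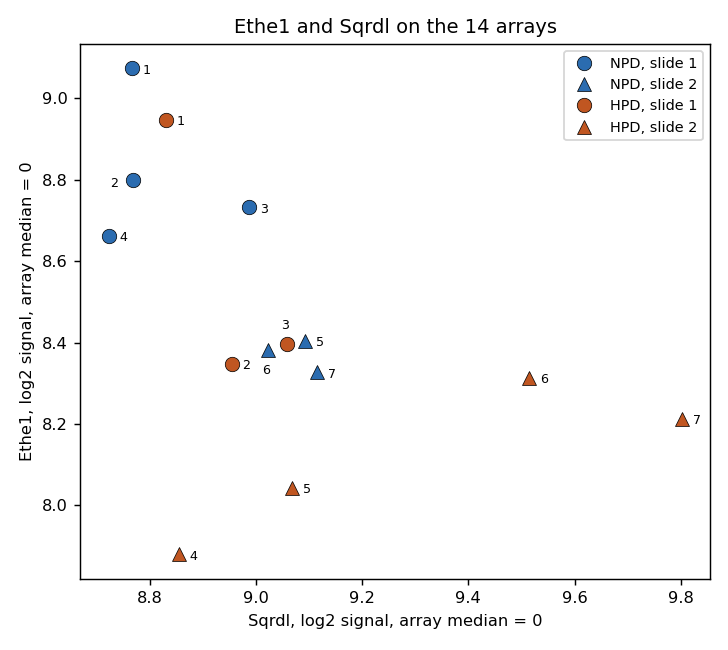
Log2 signal of Ethe1 against that of Sqrdl on the 14 arrays, each axis with the array median at 0. Each point is 1 rat, labelled with its replicate number (blue NPD, orange HPD, circles slide 1, triangles slide 2). HPD replicates 4 to 7 lie below all NPD rats and HPD replicates 6 and 7 also to the right of them, while HPD replicate 1 lies among the NPD rats of slide 1.

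The call for Ethe1 depended on the processing. It was called lower in HPD in 3 of 34 settings, counting the reported one. After normexp background correction and centring on the array median the difference was -0.47 (adjusted p = 0.0947), but that setting called 16.9% of all probes. In the log2 table deposited by the authors with slide as a block it was -0.38 (adjusted p = 0.0728), and there 10.5% of all rows were called. With normexp and slide as a block together, a setting chosen after seeing the data, it was -0.40 (adjusted p = 0.0463), with 27.9% of all probes called. Cbs was called in the last of these only, at -0.44 (adjusted p = 0.0985), and the other 5 genes in none of the 34. In all 34 settings Ethe1, Cbs, Cth, Mpst and Suox were lower in HPD and Sqrdl was higher. Cyclic loess moved the median over all probes by -0.105. Relative to that median Sqrdl was higher by 0.12 in the fit of diet alone and by 0.09 after cyclic loess, and Ethe1 was at -0.43 and -0.44.

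**Figure D4:**
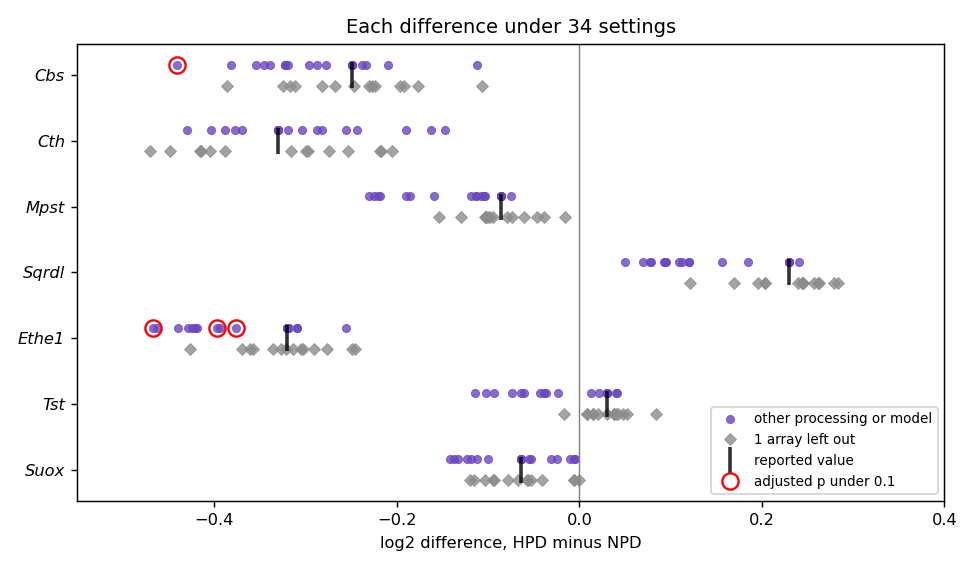
Log2 difference between HPD and NPD for each gene under 34 settings (purple circles, another processing or model; grey diamonds, 1 array left out; black bar, the reported value; red ring, adjusted p under 0.1). Ethe1 lies between -0.47 and -0.25 with 3 rings, Sqrdl lies between 0.05 and 0.28, and Tst lies on both sides of 0, from -0.11 to 0.08.

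Genes that supply sulfur to the route or take up its products were counted in 8 further lists, with 87 genes on the array, each by its brightest probe. None was called. At an unadjusted p under 0.05 there were 8 higher and 5 lower in HPD, which is 14.9% of the 87, beside 5.86% of all probes higher and 5.55% lower, so the share was near the background. Their adjusted p-values were between 0.417 and 0.437. By sign 55 were higher and 32 lower, with a median of 0.12 against 0.11 over all probes.

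Of 13 enzymes next to the sulfide route, 2 were higher and 1 lower at that unadjusted threshold. Dao encodes D-amino acid oxidase, which makes 3-mercaptopyruvate from D-cysteine and so feeds Mpst. Its mean was -2.16 in NPD and -0.93 in HPD, a difference of 1.23 (SE 0.37, 95% interval 0.44 to 2.02, adjusted p = 0.417), but it was well above background on 4 of 7 NPD arrays and on all 7 HPD arrays. Ddo, D-aspartate oxidase, differed by 0.24, and Got1, the cytosolic aspartate and cysteine aminotransferase, by -0.31. In the methionine cycle, which supplies homocysteine to Cbs, 1 of 12 genes passed: Ahcyl2, a relative of adenosylhomocysteinase, at 0.39. Among 7 genes of cysteine uptake and the taurine route it was Slc1a1, a carrier of glutamate and cysteine, at 0.37, with an unadjusted limma p of 0.0549 once slide was a block. With that block Csad of the same list passed instead, at -0.34 (unadjusted limma p of 0.0335), and was not called.

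Glutathione accepts sulfur from the sulfide route, and 2 of 10 genes of its synthesis and turnover passed. Chac1, which degrades glutathione, was higher by 0.33, while the other, Gclm, the modifier subunit of glutamate-cysteine ligase, was well above background on 1 of 14 arrays and is given no fold. Sulfite oxidase needs the molybdenum cofactor, and of 9 genes of the cofactor and its enzymes 2 passed: Mocs3, which activates a subunit of molybdopterin synthase, at -0.26 and Marc2, an amidoxime-reducing molybdenum enzyme, also at -0.26. Of 11 genes that carry or activate sulfate or carry thiosulfate, Slc26a2, a sulfate carrier, was higher by 0.35 and Bpnt1, a phosphatase that clears a by-product of sulfation, by 0.20.

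Ubiquinone takes the electrons of sulfide, and of 11 genes of its synthesis Coq7, a hydroxylase of a late step, passed at -0.33. Cytochrome c oxidase is the enzyme at which those electrons reach oxygen and the one that sulfide inhibits. Of 14 genes for it and for cytochrome c, 13 were higher in HPD by sign, with a median of 0.28. Over all probes 35.8% were lower in HPD by sign. At the unadjusted threshold 1 gene passed, Cox4i2, at 0.34 (unadjusted limma p of 0.0502 with slide as a block). With slide as a block 2 others passed, Cox7b at 0.25 and Cox6a1 at 0.27 (unadjusted limma p of 0.0401 and 0.0419), and neither was called. The median was 0.20 with slide as a block and between 0.06 and 0.38 over 32 settings, with 12 or 13 genes higher in each.

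**Figure D5:**
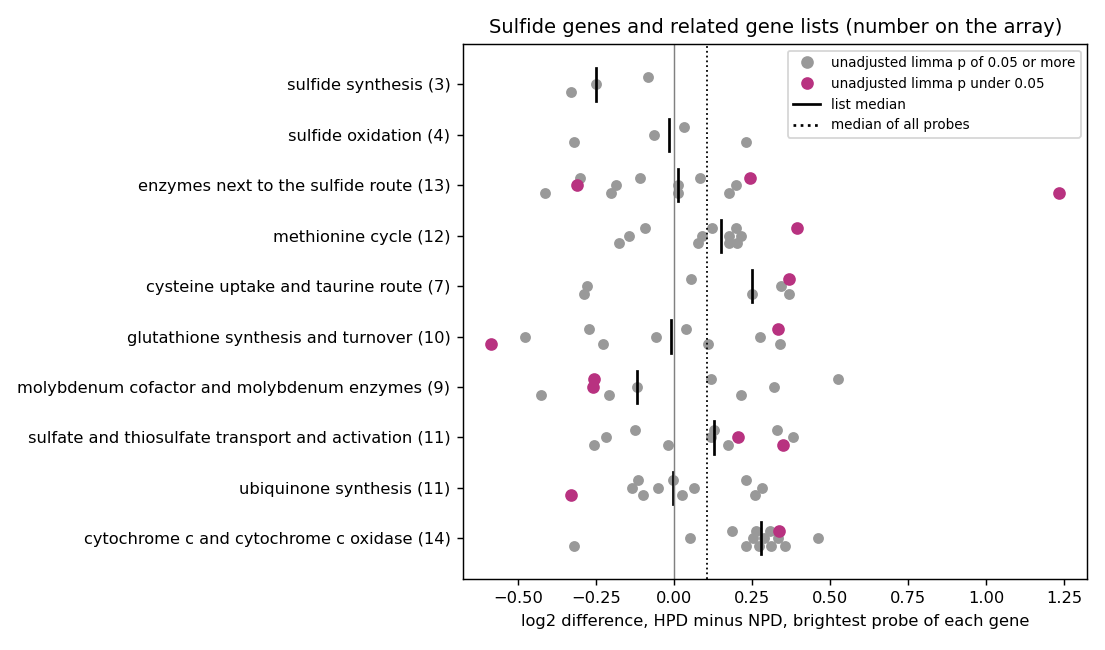
Log2 difference between HPD and NPD for each gene of the 2 sulfide lists and the 8 related lists (number of genes on the array in brackets), brightest probe of each gene. Pink points have an unadjusted limma p under 0.05, black bars are list medians, and the dotted line is the median of all probes (0.11). Dao stands at the right edge at 1.23, the pink point at the left edge is Gclm, which was mostly not well above background, and the cytochrome c oxidase genes lie to the right of the dotted line except for Cox8b (0.05) and Cox6a2 (-0.32).

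Cell markers were read beside these results. All 11 absorptive colonocyte markers, all 8 goblet cell markers and all 6 enteroendocrine markers on the array were well above background on every array, while 5 of 11 immune markers and 2 of 9 stromal and muscle markers were not. Of the 8 stem and cycling markers 6 were well above background on every array, and of the 5 red blood cell markers only 2. Of 58 markers 0 were called, with 5 higher and 5 lower at an unadjusted p under 0.05, beside 5.86% and 5.55% of all probes. Those higher were Guca2a (0.31), Itgam (0.34), Col1a1 (0.35), Hba-a2 (0.52) and Col3a1, which was well above background on 1 array and is given no fold. The absorptive list had 8 of 11 genes higher in HPD by sign, a median of 0.15 and a summed linear signal, in multiples of the array median, of 6217 to 8366 in NPD and 6592 to 10830 in HPD. The goblet list had 5 of 8 genes lower, a median of -0.28, and sums of 5145 to 7788 and 4060 to 10950. Those lower included Agr2 and Clca1 of this list, at -0.63 and -0.56, while Spdef of the same list was at 0.40 and did not pass. The others lower were Top2a of the 8 stem and cycling markers (-0.68), Lyz2 (-0.56) and Myh11 (-0.48). All 5 red blood cell markers were higher in HPD by sign, with a median of 0.40 and sums of 38.2 to 67.1 in NPD and 46.8 to 172.9 in HPD, but their median ran from -0.03 to 0.59 over 32 settings. The stem and cycling list had 4 of 8 genes lower, a median of -0.06 and sums of 124.9 to 202.9 and 111.2 to 220.2. The 6 enteroendocrine markers had sums of 551.4 to 1142 and 407.3 to 1341. The sums of the immune list were 22.4 to 60.4 in NPD and 22.5 to 30.8 in HPD, and those of the stromal and muscle list 13.9 to 28.9 and 12.0 to 23.0. The part of these cells in the differences of the sulfide genes was not tested.

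Likeness between genes was described by Pearson's r over the 14 arrays on log2 values centred within each slide and diet, among 17462 candidates well above background on all arrays. Arrays share a scaling and a hybridisation, so these values carry no test. Among the 21 pairs of members, Sqrdl and Mpst had the highest r, at 0.90 (Spearman's rho 0.81, and r = 0.73 without the 2 arrays farthest from the median of Sqrdl). Sqrdl and Ethe1 had r = 0.26, and without centring r = -0.46. Ethe1 and Cth had r = 0.82 without centring and 0.36 with it, and both genes were lower on slide 2.

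The genes nearest to Sqrdl were Adh5 (r = 0.98), the glutathione-dependent formaldehyde dehydrogenase, AA996428 (0.98) and Mea1 (0.97). Nearest to Ethe1 were Nfil3 (0.95), a transcription factor, Tmem8a (0.94) and Wdr45l (0.94). Their own diet differences had no common sign, at -0.81 for Nfil3, 0.06 for Tmem8a and 0.11 for Wdr45l. Those of Tst were Gnl2 (0.95), Cct7 (0.92) and Acss3 (0.92), and those of Suox included Rprml (0.98) and Krt23 (0.98). Mpst was nearest to the ribosomal protein gene Rpl32 (0.98) and to a pair of probes without a gene symbol (0.99 and 0.98). Selm (0.94), Pctp (0.94) and Mpp7 (0.89) were nearest to Cbs, and Ppfibp2 (0.92), RGD1309621 (0.88) and Rpp40 (0.87) to Cth. Without centring, the r of these genes to their member ran from -0.24 for Wdr45l to 0.97 for RGD1309621. For example, it was 0.94 for Nfil3, 0.59 for Tmem8a, 0.34 for Selm and 0.32 for Gnl2.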

How the data were processed

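Cy3-labelled colonocyte RNA was hybridised to 1-colour Agilent arrays, and the authors deposited the scanner output of Feature Extraction 10.7.3.1, which gives each spot an intensity on a linear scale, with background subtraction and quality marks. A second file deposited by the authors holds normalized log2 values by gene name and served here as an alternative. The methods name limma, a log2 transformation, centring by array and a threshold of q below 0.1, and neither the signal column nor the centring statistic. Here, after removal of controls and of spots that the scanner marked as outliers, the net signal was put on the log2 scale, spots of a probe were averaged and each array was centred on its median. The model had 1 term, diet, and was fitted to 30367 probes with lmFit and eBayes (limma 3.58.1, R 4.3.3), with Benjamini-Hochberg adjustment and without a filter on signal, and was tested on simulated data first. Exact two-sided permutation tests used the 3432 splits of the arrays, with a smallest p of 0.000583, or 1225 regroupings within slides. Files were read with version 1.17.8 of data.table, probe positions with Python 3.11.15 and pandas 2.3.3, and figures were drawn with matplotlib 3.10.9.

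The brightest probe stood for a gene in lists. Named genes were all members, in each related list up to 4 genes by smallest unadjusted p under 0.05, and the 3 genes nearest to each member by correlation, of which 1 is not reported here. Members, lists and tests were chosen with earlier results of these data known. All 7 members matched RefSeq (GRCr8) by accession, which gave names only. Samples left out by the authors after principal component analysis were not used here. Columns of other samples numbered 0. Alternatives were other signal columns, centring, quantile normalization, cyclic loess, normexp (offset 50), a filter on dim probes, slide or replicate number as a block, a trended eBayes prior, the authors' log2 values, the mean of all probes of a gene, an adjusted p under 0.05, and leaving out each array. The number of arrays limits the precision.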

Additional observations from a re-analysis of the deposited data

Results flagged for a closer look

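Tst in HPD replicate 4 was at 5.651, and the nearest other HPD rat was at 5.932. The gap was 0.612 of the range of the 7 HPD values, above Dixon's 95% critical value for 7 samples. It was the only such value among the 14 groups tested (7 genes in each diet), and chance marks about 1 group in 20. HPD replicate 4 also held the lowest Ethe1 and Mpst values of the 14 arrays. Without it the Tst difference between the diets was 0.08 (limma adjusted p = 0.725).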

How the results depend on the processing

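The count of members called was 1 after normexp with array-median centring (Ethe1), 1 in the authors' log2 table with slide as a block (Ethe1) and 2 with normexp and slide as a block together, added after seeing the data. It was 0 in all other settings. Related-list genes called numbered 11, 11 and 17 in the same settings. Calls over all probes went there from 17 to 5142, 2767 and 8479, of which 36.3%, 62.1% and 38.1% were lower in HPD, against 0% of the 17. The lower share was 38.9% in the deposited table (18 calls). Without HPD replicate 1, 151 probes were called (57.0% lower), and the other fits without 1 array called 9 to 28.

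Only Tst changed sign. Its difference was -0.0738 with the mean and -0.0607 with the median pixel signal, -0.0435 when centred on the mean, -0.0369 after quantile normalization, -0.0234 after cyclic loess, -0.0391 after normexp with quantile normalization, -0.115 after normexp with array-median centring and -0.0934 with slide as a block added. It was -0.102 in the deposited table, -0.0635 there with slide as a block, and -0.0169 without NPD replicate 1, with 0.0843 as the highest value without 1 array. Without 1 array, 0 members were called, and Ethe1 ranged from -0.427 to -0.245, Sqrdl from 0.122 to 0.283, Cth from -0.470 to -0.205, Mpst from -0.154 to -0.0161 and Suox from -0.120 to -0.000916. In these fits, differences moved by over 1.5 times for Mpst, Suox and Tst, all near 0 to begin with. The same held for Cbs without HPD replicate 3 (-0.106) or 7 (-0.387) and for Sqrdl without HPD replicate 7 (0.122). For Cth it held without NPD replicate 1 (-0.205), NPD replicate 2 (-0.217) or HPD replicate 6 (-0.218). Processing moved Sqrdl, Cth and Cbs as far. Sqrdl fell from 0.229 to 0.120 with the mean pixel signal, 0.0940 with quantile normalization and 0.0774 with normexp and array-median centring. It was lowest, at 0.0501, with slide as a block added to normexp, but 0.240 when centred on the 75th percentile. Cth was at -0.190 with slide as a block. Cbs was at -0.112 as the mean of its probes and -0.441 with normexp and slide as a block.

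Numbered replicates were not paired by the labels. Deviations of same-numbered rats correlated with r from -0.0899 to 0.386, and 1 of 7 numbers correlated best with itself. These deviations were taken from the mean of each diet, so differences between the slides remain in them. The lowest r was that of replicate number 4, the only number whose rats lay on different slides. With the replicate block, 8 probes and 0 members were called (Ethe1 -0.32, adjusted p = 0.186).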
